A study of Mus musculus with 9 samples.

Results

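The genes described here were 7 enzymes of cholesterol synthesis, Hmgcs1, Idi1, Fdps, Fdft1, Sqle, Lss and Cyp51, chosen by name from the 24505 genes of a count table of sorted mouse male germ cells. All 7 had a line in the table, 6 had reads and were tested, and Hmgcs1 was listed at 0 in all 9 libraries. The 9 libraries came in groups of 3: In/B spermatogonia (intermediate and type B, labelled type B spermatogonia) taken at postnatal day (P)17, and preleptotene (PL) spermatocytes taken at P19 that were either RA-sufficient or RA-deficient. The Uchl1-eGfp mice, a C57BL/6 line outcrossed to CD-1, express EGFP from the Uchl1 promoter, which is bright in spermatogonia and dim in PL spermatocytes, and EGFP+ cells were sorted from testes pooled over at least 5 pups of a litter. All groups, In/B included, had received WIN18,446, an inhibitor of retinoic acid (RA) synthesis, daily from P1 (100 µg/g body weight), and a single injection of 10 µl RA at 10 µg per µl on P11. WIN18,446 was then stopped in the RA-sufficient mice and continued in the RA-deficient mice. The labels describe these regimens for the PL cells and do not say which of them the P17 mice followed, whereas the study calls its In/B spermatogonia RA-sufficient.

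Cells make cholesterol from acetyl-CoA through mevalonate. Hmgcs1 makes the HMG-CoA from which mevalonate comes, Idi1 interconverts the isoprene units made from it, and Fdps joins them into farnesyl diphosphate, which also feeds protein prenylation, dolichol and ubiquinone. Fdft1 commits farnesyl diphosphate to sterols by making squalene, Sqle oxidizes squalene, Lss closes the rings to lanosterol, and Cyp51 removes a methyl group of lanosterol and yields a meiosis-activating sterol known from the gonads. When sterols are scarce, Scap carries the transcription factor SREBP2 (Srebf2) out of the endoplasmic reticulum, and SREBP2 turns on these enzymes together with NF-Y and SP1, while Insig1 holds Scap back when sterols are plentiful.

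The RefSeq promoter windows of Cyp51, Lss, Idi1 and Hmgcs1 are shown because the members did not move alike, whereas Nfyb, a subunit of the CCAAT-binding factor NF-Y, fell. Each stretch holds the 150 bases before the transcription start (GRCm38.p6, not the build of the counts), on the gene's strand. They lie at chr5:4104698-4104847 (-) for Cyp51, chr10:76531455-76531604 (+) for Lss, chr13:8885456-8885605 (+) for Idi1 and chr13:119690201-119690350 (+) for Hmgcs1. Capitals mark CCAAT (read as ATTGG on the other strand) and the sterol regulatory element TCACNCCAC.
Cyp51: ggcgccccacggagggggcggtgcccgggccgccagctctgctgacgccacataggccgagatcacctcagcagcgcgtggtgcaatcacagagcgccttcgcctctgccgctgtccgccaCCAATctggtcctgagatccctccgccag
Lss: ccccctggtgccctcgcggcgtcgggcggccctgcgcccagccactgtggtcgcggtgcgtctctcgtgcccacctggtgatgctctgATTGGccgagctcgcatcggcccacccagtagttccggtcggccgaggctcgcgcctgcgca
Idi1: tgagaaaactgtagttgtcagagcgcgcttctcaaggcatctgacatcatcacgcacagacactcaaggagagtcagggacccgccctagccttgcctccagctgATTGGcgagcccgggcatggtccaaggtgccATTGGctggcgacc
Hmgcs1: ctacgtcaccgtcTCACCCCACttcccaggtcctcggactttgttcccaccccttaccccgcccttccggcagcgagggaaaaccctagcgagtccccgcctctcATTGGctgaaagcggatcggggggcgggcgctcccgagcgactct
The table held windows of 4 of the 7 members, and Sqle, Fdps and Fdft1 were not matched. Searched on both strands over the full windows of 250 bases before to 50 after the start, all 4 held CCAAT, as did 37.4% of the 32851 windows of the table, and all 4 held the SP1 box GGGCGG, as did 35.7%. TCACNCCAC stood in the Hmgcs1 window and in 1.24% of all windows. None of the 4 held the cyclic AMP response element TGACGTCA (1.79% of all windows) or the E-box CACGTG (7.15%), and overlaps between motifs were allowed. A match describes these letters and was not tested for binding. Only these exact letters were searched, so a window without a match may still hold a variant of the element.

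Total counts ran from 16872425 to 26684393 in In/B, from 12612959 to 21833333 in RA-sufficient PL and from 25048240 to 27042274 in RA-deficient PL, so that 3 counts correspond to between 0.111 and 0.238 counts per 1000000 (CPM). Levels are given in CPM after scaling by the trimmed mean of M-values (TMM), and SDs are over n = 3 libraries. The labels were checked against marker genes. Kit, the receptor of differentiating spermatogonia, read 404, 327 and 331 CPM in In/B, 41, 32.8 and 20.2 CPM in RA-sufficient PL, and 561, 521 and 20.3 CPM in RA-deficient PL. Dmrt1, which PL spermatocytes lose, read 460, 485 and 111 CPM in RA-deficient PL against 534 to 711 CPM in In/B and 72.1 to 76.8 CPM in RA-sufficient PL. In Kit and Dmrt1 RA-deficient PL libraries 1 and 2 lay near or above In/B and library 3 near RA-sufficient PL. Sohlh1 (60.8, 65.2 and 16.3 CPM) and Uchl1 (1730, 1890 and 991 CPM) were also lowest in library 3 of this group. Uchl1 was 2350 to 3660 CPM in In/B and 425 to 613 CPM in RA-sufficient PL. The RA-induced Stra8 read 54.4, 165 and 150 CPM in In/B, 444, 126 and 121 CPM in RA-sufficient PL, and 377, 365 and 81.5 CPM in RA-deficient PL. Tex101 and Prss50, of the same list of 10 germ cell markers, gave another order. Tex101 was 2120 to 2400 CPM in RA-deficient PL against 216 to 552 CPM in In/B and 1260 to 2210 CPM in RA-sufficient PL, and Prss50 was 910 to 1070 CPM against 51.8 to 200 CPM and 471 to 767 CPM. All 3 RA-deficient libraries thus lay above In/B in Tex101 and Prss50, and library 3 stood apart in Kit, Dmrt1, Sohlh1, Uchl1 and Stra8 but not in these. Ddx4 (449 to 527 CPM in RA-deficient PL), Dazl (1980 to 2360 CPM) and Mael (574 to 685 CPM) did not set library 3 apart either. Each member is therefore given with all libraries of this group and without libraries 1 and 2, and so are other named genes averaging 10 CPM or more where that omission changed a call or moved a called change by over 1.5 times. It leaves library 3 alone in its group, which is then assumed to vary like the libraries of the other group. The 9 detected Sertoli cell markers, led by Clu, summed to 67.3 to 352 CPM in In/B, 2880 to 3740 CPM in RA-sufficient PL and 290 to 517 CPM in RA-deficient PL. All 9 were called higher in RA-sufficient PL than in In/B and all 9 were called lower in RA-deficient than in RA-sufficient PL, although the sort kept EGFP+ cells. Sums of the 10 germ cell markers were 6300 to 7120 CPM, 4560 to 5730 CPM and 7880 to 9900 CPM in the same order, and those of 8 Leydig and steroidogenic markers 11.1 to 23.9 CPM, 113 to 125 CPM and 19.2 to 34.6 CPM. Of these 8, Nr5a1 by itself read 71.1 to 76.4 CPM in RA-sufficient PL, Star 21.4 to 23.4 CPM and Hsd17b3 7.37 to 16.6 CPM. Lhcgr read at most 0.882 CPM there. Against In/B 6 of the 8 were tested in RA-sufficient PL. Of these 6, 5 were called higher and 0 lower, where 26.1% of all genes were called higher and 19.3% lower. Insl3 had 1 count in RA-sufficient PL library 3 and 0 in every other library. The sums of 8 peritubular and stromal markers were 73.9 to 92.8 CPM, 83.4 to 92.9 CPM and 134 to 141 CPM in the same order. In RA-sufficient PL 5 of these 8 were called higher than in In/B and 1 lower, Col1a1, which went from a mean of 56.7 to 11.7 CPM, and 3 were called higher in RA-deficient PL. Macrophage, blood and endothelial markers summed to between 6.88 and 23.3 CPM in all 9 libraries. The part of these markers in the results below was not tested, and in sorted pools fewer cells of a type and less RNA per cell cannot be told apart.

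The comparison of RA-sufficient PL with In/B follows the step from the last spermatogonia to the start of meiosis. Along it, Fdps and Cyp51 fell about 3-fold, Sqle fell less and Idi1, Fdft1 and Lss did not pass the test. In RA-deficient PL, Fdps was low again, whereas Cyp51 was near its In/B level in libraries 1 and 2 and near its RA-sufficient level in library 3. The comparison of the PL groups asks what continued RA synthesis changed, and in it no member was called. Called means an adjusted p below 0.05 by edgeR's quasi-likelihood test (Benjamini-Hochberg over all genes tested) with a log2 fold change beyond 1 in either direction.

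Hmgcs1, the cytosolic HMG-CoA synthase, had 0 counts in each of the 9 libraries. In all, 4269 genes of the table were at 0 throughout. GENCODE M1, an annotation of the build of the counts (mm9, NCBIM37), lists no gene of that name. When its promoter window was cut into 6 pieces of 50 bases, each piece occurred 2 times in NCBIM37, on 2 unplaced scaffolds and on 0 assembled chromosomes. The zero is therefore given as listed, and no level of Hmgcs1 is inferred from it.

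Idi1 (chr13:8884852-8891641, + strand, mm9 here and for the members that follow) had the lowest level of the 6. It read 8.5, 11.1 and 7.4 CPM in In/B, 10.2, 6.91 and 10.6 CPM in RA-sufficient PL, and 15.4, 11.8 and 9.27 CPM in RA-deficient PL. The 3 groups overlapped, and the highest library was RA-deficient PL 1. The log2 fold change was 0.09 (95% interval -0.54 to 0.73, adjusted p = 0.788, edgeR) in RA-sufficient PL and 0.61 (-0.12 to 1.34, adjusted p = 0.176) in RA-deficient PL, each against In/B. Between the PL groups it was 0.39 (-0.39 to 1.18, adjusted p = 0.43, edgeR), an interval that includes both no change and a doubling. Without RA-deficient PL libraries 1 and 2 the latter values were 0.12 (adjusted p = 0.797, edgeR) and 0.011 (adjusted p = 0.987).

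Fdps (chr3:88897514-88905881, - strand), the farnesyl diphosphate synthase, fell in both PL groups. It read 87.2, 60.8 and 76.9 CPM in In/B, 16.1, 21.2 and 26.5 CPM in RA-sufficient PL, and 32.8, 23.1 and 18.4 CPM in RA-deficient PL. Every In/B library lay above every PL library, and the PL groups overlapped. The mean fell from 75 ± 13.3 CPM to 21.3 ± 5.2 CPM in RA-sufficient PL, a log2 fold change of -1.76 (SE 0.23, adjusted p = 2.08e-04, edgeR). In RA-deficient PL it was 24.8 ± 7.31 CPM, a log2 fold change of -1.44 (SE 0.26, adjusted p = 0.00395, edgeR), and it stayed called without library 3. Without libraries 1 and 2, where the spread comes from the In/B libraries, it was -1.96 (adjusted p = 0.00356, edgeR). The PL groups differed by 0.22 on the log2 scale (95% interval -0.47 to 0.91, adjusted p = 0.62, edgeR), or by -0.21 (adjusted p = 0.697) without libraries 1 and 2, and both were compared with the same In/B libraries.

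Fdft1 (chr14:63763990-63796630, - strand), the squalene synthase, varied least among the In/B libraries, with 86.5, 84.5 and 83.1 CPM. It read 85.7, 73.4 and 70.3 CPM in RA-sufficient PL and 57.7, 61.2 and 63.4 CPM in RA-deficient PL. All RA-deficient libraries were below all others, whereas In/B and RA-sufficient PL overlapped. The differences were small: the log2 fold change was -0.09 (95% interval -0.38 to 0.20, adjusted p = 0.542, edgeR) in RA-sufficient PL, -0.31 (-0.62 to -0.01, adjusted p = 0.102) in RA-deficient PL against In/B, and -0.34 (-0.71 to 0.03, adjusted p = 0.159) between the PL groups. The value against In/B passed the adjusted threshold without library 3 (-0.34, adjusted p = 0.0489, edgeR), with library sizes in place of TMM (-0.63, adjusted p = 0.00697) and with all 9 libraries in a single fit (-0.44, adjusted p = 0.0211). The value between the PL groups passed it with library sizes (-0.52, adjusted p = 0.0458, edgeR). For library 3 alone the values were -0.35 (adjusted p = 0.102, edgeR) against In/B and -0.27 (adjusted p = 0.411) against RA-sufficient PL. Ctsb lies on the opposite strand and shares 769 bases with Fdft1, so its reads could be counted here if strand was not used.

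Sqle (chr15:59146632-59162747, + strand), the squalene epoxidase and a rate-limiting step of the sterol branch, was lower in RA-sufficient PL than in both other groups. It read 103, 103 and 88.9 CPM in In/B, 60.4, 59 and 65.4 CPM in RA-sufficient PL, and 88.3, 84.3 and 83.1 CPM in RA-deficient PL. RA-sufficient PL lay below both other groups without overlap. RA-deficient PL, at most 88.3 CPM, almost met In/B, at least 88.9 CPM, and their order depends on the scaling. Between these 2 groups the log2 fold change was -0.17 with all 9 libraries in a single fit, nearer to 0 when they were fitted alone. The fall in RA-sufficient PL was -0.62 on the log2 scale (SE 0.12, adjusted p = 0.00227, edgeR), short of the fold threshold. RA-deficient PL differed from In/B by -0.038 (95% interval -0.33 to 0.26, adjusted p = 0.852, edgeR) and from RA-sufficient PL by 0.46 (0.16 to 0.77, adjusted p = 0.0387). That last value kept its size but missed the adjusted threshold in 5 of 6 leave-one-out fits, with values of 0.42 to 0.49, and without filtering. RA-deficient PL without libraries 1 and 2 differed by -0.17 (adjusted p = 0.399, edgeR) from In/B and by 0.43 (adjusted p = 0.164) from RA-sufficient PL.

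Lss (chr10:75994333-76019883, + strand), the lanosterol synthase, was highest in RA-deficient PL libraries 1 and 2. It read 86.7, 79.9 and 66 CPM in In/B, 56, 75.2 and 69.4 CPM in RA-sufficient PL, and 113, 102 and 70.3 CPM in RA-deficient PL. RA-deficient PL library 3 lay among the libraries of the other groups, which overlapped each other. The log2 fold change was -0.16 (95% interval -0.53 to 0.21, adjusted p = 0.419, edgeR) in RA-sufficient PL and 0.46 (-0.01 to 0.93, adjusted p = 0.12) in RA-deficient PL against In/B, and 0.50 (0.02 to 0.99, adjusted p = 0.12) between the PL groups. Without RA-deficient PL library 3 the latter values were 0.64 (adjusted p = 0.0085, edgeR) and 0.69 (adjusted p = 0.0122). Without libraries 1 and 2 they were -0.070 (adjusted p = 0.789, edgeR) and 0.074 (adjusted p = 0.847), so they depended on which libraries were kept. A gene on the opposite strand, 4930483K19Rik, overlaps Lss over 11268 bases.

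Cyp51 (chr5:4081145-4104746, - strand), the lanosterol demethylase, fell in RA-sufficient PL and was split in RA-deficient PL. It read 88.1, 76.3 and 73.8 CPM in In/B, 29.4, 23.5 and 23.4 CPM in RA-sufficient PL, and 70.7, 75.8 and 26 CPM in RA-deficient PL. RA-deficient libraries 1 and 2 lay at or just below In/B, and library 3 lay among the RA-sufficient libraries. The mean fell from 79.4 ± 7.66 CPM to 25.4 ± 3.46 CPM in RA-sufficient PL, a log2 fold change of -1.59 (SE 0.16, adjusted p = 6.94e-05, edgeR). RA-deficient PL, at 57.5 ± 27.4 CPM, differed from In/B by -0.30 (95% interval -1.13 to 0.54, adjusted p = 0.572, edgeR) and from RA-sufficient PL by 1.17 (0.24 to 2.10, adjusted p = 0.0724). Without library 3 the values were 0.054 (adjusted p = 0.784, edgeR) and 1.54 (adjusted p = 6.79e-04). Without libraries 1 and 2 they were -1.54 (adjusted p = 0.00248, edgeR) and 0.034 (adjusted p = 0.942), so the place of Cyp51 in RA-deficient PL depended on which libraries were kept.

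**Figure D1:**
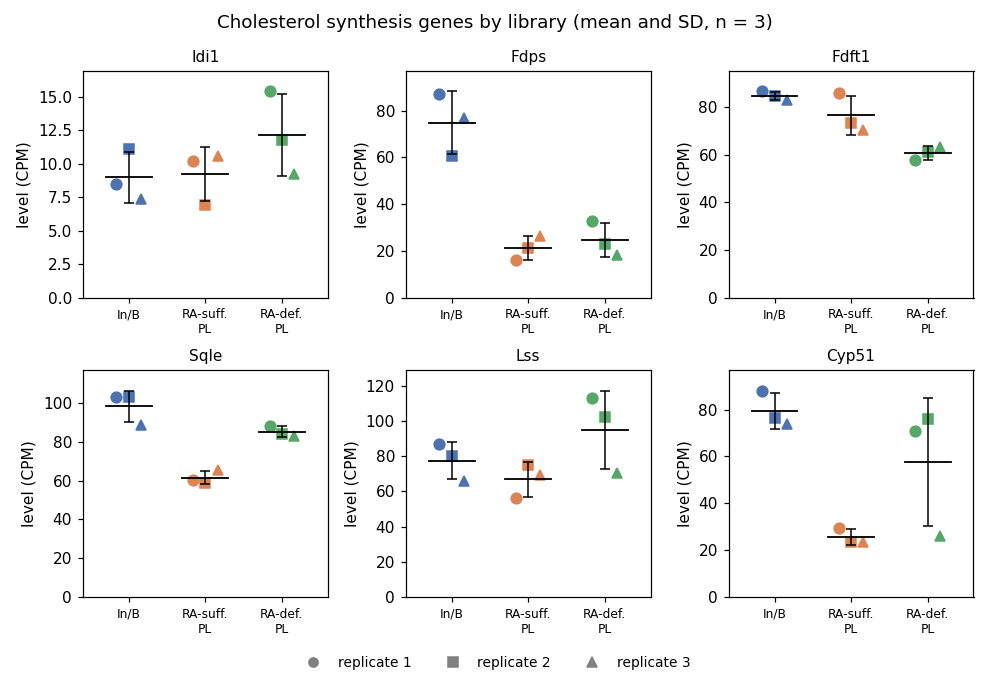
Level of the 6 detected members (y axis, CPM) in each library, grouped by cell type (x axis). Symbols mark replicate numbers, the horizontal line is the group mean and the bar 1 SD. Fdps is low in all 6 PL libraries, and Cyp51 of RA-deficient PL lies at 70.7 and 75.8 CPM in libraries 1 and 2 and at 26 CPM in library 3.

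In RA-sufficient PL against In/B, 2 of the 6 members tested were called lower, Fdps and Cyp51, and 0 higher, where 19.3% of all 15001 genes tested were called lower and 26.1% higher. On an adjusted p alone (edgeR's quasi-likelihood test), 3 were lower, where 31.2% of all genes were lower and 33.8% higher. The members' median log2 fold change was -0.39, against 0.04 over all genes tested. With 1 member fewer called, the share called lower among the members would lie below that of all genes.

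In RA-deficient PL against In/B, 1 of 6 was called lower, Fdps, and 0 higher, where 11.8% of 14877 genes were called lower and 11.4% higher. On an adjusted p alone it was again Fdps, where 18.3% of all genes were lower and 18.4% higher. The median of the members was -0.17, near the 0.0038 of all genes. Without libraries 1 and 2, Fdps changed by -1.96 and Cyp51 by -1.54 on the log2 scale.

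In RA-deficient against RA-sufficient PL, 0 of 6 members were called by edgeR's quasi-likelihood test, where 4.47% of 15352 genes were called higher and 11% lower. On an adjusted p alone 1 was higher, Sqle, where 11% of all genes were higher and 12.6% lower. DESeq2 called 1 member, Cyp51, higher, and over all genes it called 923 higher and 2337 lower. The median of the members was 0.43, against -0.09 over all genes, and 5 of the 6 values were above 0. Without libraries 1 and 2 that median was 0.022.

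**Figure D2:**
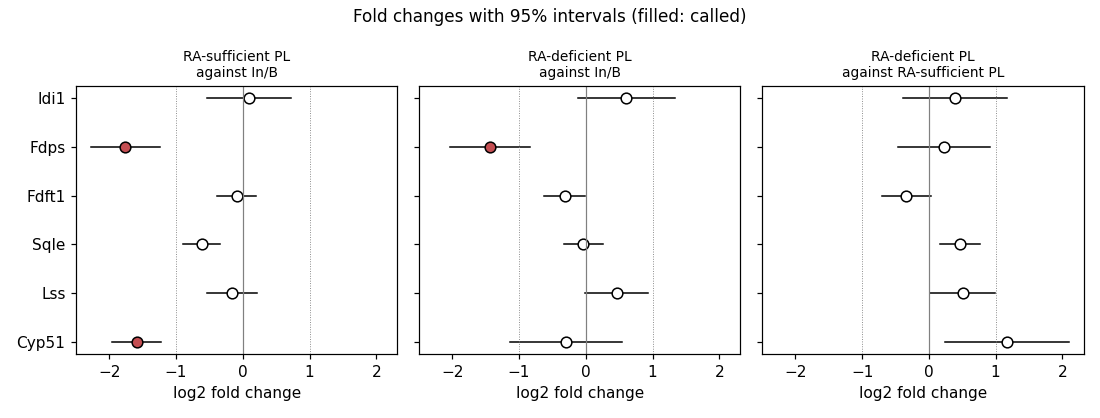
Log2 fold change (x axis) of the 6 tested members (y axis, pathway order) in the 3 comparisons, by edgeR. Bars are 95% intervals, filled points are called, and dotted lines mark absolute log2 fold changes of 1. Fdps is called lower in both PL groups against In/B, and Cyp51 in RA-sufficient PL.

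Per kb of exon (GENCODE M1), Fdps was the highest member in In/B with 60.8 CPM per kb. Fdft1 followed at 29.6, Cyp51 at 18.5, Sqle at 17.7, Lss at 7.19 and Idi1 at 3.14 CPM per kb, and the ranges of Cyp51 and Sqle overlapped. In RA-sufficient PL Fdft1 led with 26.7 CPM per kb, ahead of Fdps at 17.2 and Sqle at 11.1, with Lss at 6.2 and Cyp51 at 5.93 overlapping and Idi1 again last at 3.22. In RA-deficient PL the means ran from Fdft1 (21.2) and Fdps (20.1) through Sqle (15.4), Cyp51 (13.4) and Lss (8.82) to Idi1 (4.24 CPM per kb). There Fdps, at 14.9 to 26.6, overlapped both Fdft1 and Sqle, and Cyp51, at 6.07 to 17.7, overlapped Fdps, Sqle and Lss, the last at 6.52 to 10.5 CPM per kb. Dividing by the longest transcript in place of all exons put Sqle (22) above Cyp51 (20.2 CPM per kb) in In/B.

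Across the 9 libraries Cyp51 followed Sqle (Pearson r = 0.851) and Fdps (r = 0.752), and Sqle followed Fdps (r = 0.76), whereas Fdft1 ran against Lss (r = -0.607) and Idi1 (r = -0.56). These r are of log2(CPM + 1), over libraries that share 3 groups, and are given as descriptions. The members' standardized levels averaged 0.24 to 0.78 in In/B, -0.82 to -0.50 in RA-sufficient PL, and 0.52, 0.22 and -0.57 in RA-deficient PL libraries 1 to 3. Among 9692 genes averaging 10 CPM or more, the 5 that followed that average most closely over the 9 libraries were Snrpd1 (r = 0.979), Trim25 (0.979), Sod1 (0.976), Polr2j (0.976) and Fam136a (0.975).

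Several other enzymes of the pathway also fell in RA-sufficient PL. Of 15 listed, 14 were tested, and 7 of them were called lower and 2 higher, with a median log2 fold change of -0.98. Together with the members, 20 enzymes were tested. Of these 20, 9 were called lower and 2 higher in RA-sufficient PL, where 19.3% of all genes tested were called lower and 26.1% higher. In RA-deficient PL against In/B 6 were called lower and 1 higher, where 11.8% of all genes were lower and 11.4% higher. Between the PL groups 2 were called lower and 1 higher, where 11% of all genes were lower and 4.47% higher. The same In/B libraries served both of the former comparisons.

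Before the isoprene steps, Mvd, which makes isopentenyl diphosphate, read 62.2, 35.5 and 31.1 CPM in In/B, 7.95, 13 and 11.9 CPM in RA-sufficient PL, and 13.5, 17.1 and 9.01 CPM in RA-deficient PL. It thus fell in both PL groups like Fdps, by 1.92 (SE 0.32, adjusted p = 8.33e-04, edgeR) and by 1.53 (SE 0.35, adjusted p = 0.0113) on the log2 scale, the latter a change of -2.18 without libraries 1 and 2 (adjusted p = 0.0147, edgeR). Mvk, the mevalonate kinase, fell by 1.06 in RA-sufficient PL (adjusted p = 0.00865, edgeR), a call lost without In/B library 1 (-0.99) or RA-sufficient library 1 (-0.89). Acat2, which condenses acetyl-CoA at the entry, was called higher in RA-deficient PL alone (1.05, SE 0.17, adjusted p = 0.00227, edgeR) and lay just under the fold threshold in 3 fits without a library (0.96 to 0.99) and at 0.73 by library sizes.

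After lanosterol, the sterol dehydrogenase Nsdhl and the ketoreductase Hsd17b7 fell in both PL groups. Nsdhl went from 51.7 to 52.4 CPM in In/B to 16.5 to 20.2 CPM in RA-sufficient PL and 11.5 to 20.9 CPM in RA-deficient PL, log2 fold changes of -1.41 (SE 0.16, adjusted p = 1.18e-04, edgeR) and -1.62 (SE 0.26, adjusted p = 0.0021). Hsd17b7 fell by 1.80 (adjusted p = 3.98e-05, edgeR) and by 1.45 (adjusted p = 0.0115) on the log2 scale, the latter a change of -2.10 without libraries 1 and 2. Dhcr7, the last step to cholesterol, was 106 to 145 CPM in In/B, 44.5 to 55.7 CPM in RA-sufficient PL and 33.4 to 54.1 CPM in RA-deficient PL, with all In/B libraries above all PL libraries (-1.29, adjusted p = 2.21e-04, edgeR, and -1.35, adjusted p = 0.00246). Sc5d, the sterol desaturase, was called lower in both (-1.17, adjusted p = 0.00472, edgeR, and -1.14, adjusted p = 0.0223), calls lost without RA-sufficient library 2 (-0.998) and in 4 of 6 leave-one-out fits of RA-deficient PL against In/B, and at -0.82 (adjusted p = 0.0711, edgeR) without libraries 1 and 2. These genes did not pass the test between the PL groups.

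Ebp, the sterol isomerase, and Msmo1, the sterol methyl oxidase, were called lower in RA-deficient than in RA-sufficient PL. Ebp read 1.68, 4.2 and 3.39 CPM in In/B, 31.8, 24.9 and 25.1 CPM in RA-sufficient PL, and 0.56, 1.66 and 2.05 CPM in RA-deficient PL. It was high in RA-sufficient PL alone, as were the Sertoli markers, with log2 fold changes of 3.19 against In/B (SE 0.34, adjusted p = 8.3e-05, edgeR) and -4.26 between the PL groups (SE 0.51, adjusted p = 0.00252). Msmo1 read 25.6, 28.5 and 28.1 CPM in In/B, 38.8, 33.1 and 33 CPM in RA-sufficient PL, and 19.4, 7.09 and 11.1 CPM in RA-deficient PL. The 3 groups did not overlap, and the fall between the PL groups was -1.49 (SE 0.38, adjusted p = 0.0292, edgeR), a call lost in 4 of 6 leave-one-out fits. Msmo1 was also called lower against In/B without libraries 1 and 2 (-1.23, adjusted p = 0.00838, edgeR). Tm7sf2, a sterol reductase under the level set for naming and chosen after its values were seen, was the other enzyme called higher in RA-sufficient PL (1.53, adjusted p = 0.00183, edgeR), and without libraries 1 and 2 it was called lower in RA-deficient than in RA-sufficient PL (-1.73, adjusted p = 0.0365).

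**Figure D3:**
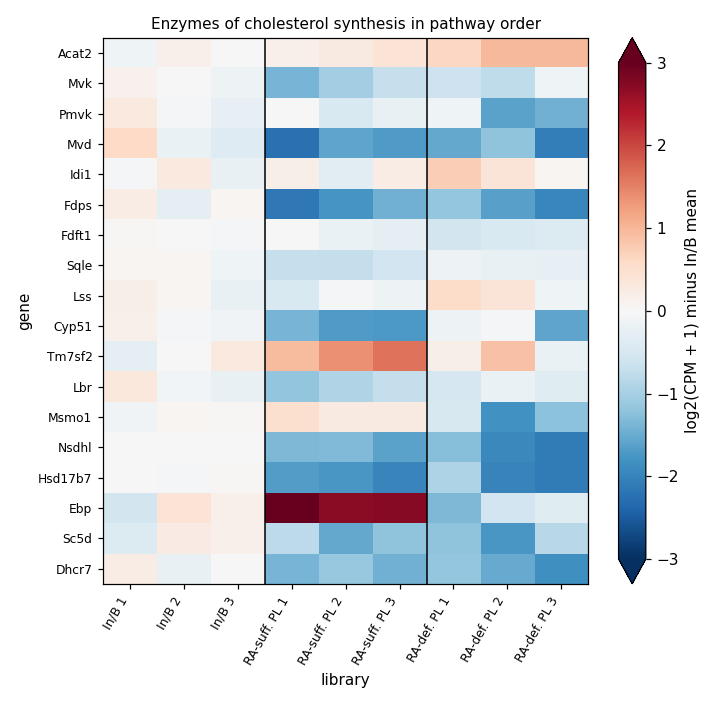
Log2(CPM + 1) of members and other enzymes of cholesterol synthesis (y axis, pathway order) minus the gene's In/B mean, in each of the 9 libraries (x axis). Blue is lower and red higher than In/B. Mvk, Mvd, Fdps, Sqle, Cyp51, Lbr, Nsdhl, Hsd17b7, Sc5d and Dhcr7 are lower in all 6 PL libraries. Of these, Cyp51 is near the In/B mean in RA-deficient PL libraries 1 and 2 (-0.16 and -0.062) and far below it in library 3 (-1.571).

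Of 12 genes of the isoprenoid branches (prenyl transferases, dolichol and ubiquinone synthesis), 0 were called in RA-sufficient PL, where 19.3% of all genes were called lower and 26.1% higher. DESeq2 called 1 lower, and over all genes it called 3049 lower and 4256 higher. On an adjusted p alone (edgeR), 1 was higher and 5 lower, where 33.8% of all genes were higher and 31.2% lower. In RA-deficient PL against In/B 1 was called lower and 0 higher, where 11.8% of all genes were lower and 11.4% higher. It was Fntb, the farnesyltransferase beta subunit (-1.07, SE 0.21, adjusted p = 0.00593, edgeR). Fntb read 37.6, 38.3 and 29.2 CPM in In/B, 26.3, 21.8 and 24.1 CPM in RA-sufficient PL, and 15.9, 12.8 and 15.8 CPM in RA-deficient PL, and the groups did not overlap.

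Among 15 genes of SREBP control, Insig1 and Nfyb were called lower in both PL groups against In/B, and Scap was called higher in RA-deficient PL. Of all genes tested, 19.3% were called lower and 26.1% higher in RA-sufficient PL, and 11.8% lower and 11.4% higher in RA-deficient PL. Insig1, itself a target of SREBP2, read 103, 90.2 and 84.1 CPM in In/B, 13.4, 22.9 and 24.7 CPM in RA-sufficient PL, and 39.2, 42 and 26.7 CPM in RA-deficient PL. The groups did not overlap, and it fell by 2.13 (SE 0.23, adjusted p = 9.8e-05, edgeR) and by 1.19 (SE 0.21, adjusted p = 0.00334) on the log2 scale. Nfyb went from 95.1 to 106 CPM in In/B to 13.4 to 17.1 CPM in RA-sufficient PL and 15.3 to 29.1 CPM in RA-deficient PL (-2.62, SE 0.15, adjusted p = 1.1e-05, edgeR, and -1.98, SE 0.24, adjusted p = 6.67e-04, the latter -2.62 without libraries 1 and 2).

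Srebf2 and Scap were both higher in RA-deficient than in RA-sufficient PL, under the fold threshold. Srebf2 read 183, 154 and 144 CPM in In/B, 96.2, 117 and 112 CPM in RA-sufficient PL, and 195, 211 and 187 CPM in RA-deficient PL, the lowest group being RA-sufficient PL and the highest RA-deficient PL, without overlap. Its log2 fold changes stayed under the fold threshold, at -0.51 (adjusted p = 0.0107, edgeR) and 0.47 (adjusted p = 0.0282, lost at 0.15 by library sizes and at 0.29 without libraries 1 and 2) against In/B and 0.86 (adjusted p = 0.00339) between the PL groups. Scap was 189 to 217 CPM in In/B, 281 to 370 CPM in RA-sufficient PL and 559 to 589 CPM in RA-deficient PL, log2 fold changes of 0.76 (adjusted p = 9.94e-04, edgeR) and 1.65 (SE 0.10, adjusted p = 4.91e-05) against In/B. All 3 RA-deficient libraries were alike in Srebf2 and Scap, unlike in Cyp51. No gene of the list was called between the PL groups by edgeR, where 11% of all genes were called lower and 4.47% higher, and DESeq2 called 0. On an adjusted p alone (edgeR), 4 were higher and 2 lower, where 11% of all genes were higher and 12.6% lower.

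Of 15 genes of uptake and transport, 7 were called lower and 2 higher in RA-sufficient PL, where 19.3% of all genes were called lower and 26.1% higher. In RA-deficient PL against In/B 6 were called lower and 0 higher, where 11.8% of all genes were lower and 11.4% higher. Between the PL groups 2 were called lower and 0 higher, where 11% of all genes were lower and 4.47% higher. Without libraries 1 and 2 more genes were called lower in both comparisons, in this list and over all genes. Mylip, a ligase that degrades lipoprotein receptors, fell in RA-sufficient PL by 1.08 (adjusted p = 0.0091, edgeR), a call lost without In/B library 1 (-0.81) or RA-sufficient library 1 (-0.92).

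Inside the cell, the sterol carriers Scp2 and Stard5 fell in both PL groups. Scp2 went from 38.9 to 40.6 CPM in In/B to 11.9 to 13.3 CPM in RA-sufficient PL and 5.03 to 12.9 CPM in RA-deficient PL (-1.62, adjusted p = 7.32e-05, edgeR, and -2.13, adjusted p = 0.00278). With library 3 alone the latter was -2.92 (adjusted p = 7.21e-04, edgeR), and Scp2 was then also called lower in RA-deficient than in RA-sufficient PL (-1.31, adjusted p = 0.047). Stard5 fell by 1.81 (adjusted p = 1.42e-04, edgeR) and by 2.30 (adjusted p = 0.0473), the latter lost in 4 of 6 leave-one-out fits, with 7.04, 3.68 and 0.437 CPM in RA-deficient PL. In library 3 alone Stard5 changed by -5.47 against In/B and was called lower than in RA-sufficient PL (-3.68, adjusted p = 0.00906, edgeR). Npc1, which exports cholesterol from lysosomes, was 105 to 124 CPM in In/B, 28 to 34.7 CPM in RA-sufficient PL, and 85.1, 82.5 and 34.7 CPM in RA-deficient PL, the split seen for Cyp51. It fell by 1.81 in RA-sufficient PL (SE 0.14, adjusted p = 2.37e-05, edgeR), and between the PL groups it was called without library 3 only among the fits that left out a library (1.39, against 1.06 and adjusted p = 0.0634 with it). Npc1 was called lower against In/B without libraries 1 and 2 (-1.68, adjusted p = 0.00114, edgeR). Its partner Npc2 was 84.3 to 104 CPM, 58.6 to 61.4 CPM and 29.4 to 35.8 CPM in the 3 groups, lowest in RA-deficient PL (-1.36 against In/B, adjusted p = 4.98e-04, edgeR), and it was called between the PL groups without libraries 1 and 2 (-1.03, adjusted p = 0.0256).

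Lrp8, a lipoprotein receptor, and Lipa, the lysosomal acid lipase, were high in RA-sufficient PL. Lrp8 read 121, 118 and 102 CPM in In/B, 254, 219 and 206 CPM in RA-sufficient PL, and 50, 40.1 and 16.4 CPM in RA-deficient PL, without overlap. It was higher in RA-sufficient PL than in In/B by 1.05 (adjusted p = 1.62e-04, edgeR), lower in RA-deficient PL by 1.51 (adjusted p = 0.0132), and differed between the PL groups by -2.68 (SE 0.39, adjusted p = 0.00438). The first of these calls was lost without In/B library 3 (0.97) or RA-sufficient library 1 (0.95), and the second without In/B library 1 (adjusted p = 0.0523, edgeR). With library 3 alone Lrp8 changed by -2.72 against In/B and by -3.78 between the PL groups. Lipa was 3.69 to 5.71 CPM in In/B, 20.3 to 34.4 CPM in RA-sufficient PL and 2.46 to 8.52 CPM in RA-deficient PL (2.53 against In/B, adjusted p = 1.28e-04, edgeR). Vldlr, at most 3.13 CPM in any library and chosen after its values were seen, is among the genes counted as lower in both PL groups and lost its calls in some fits that left out a library.

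Soat1, which stores cholesterol as esters, showed the widest spread between the PL groups in its list. It read 44.6, 51.7 and 48.8 CPM in In/B, 143, 110 and 93.1 CPM in RA-sufficient PL, and 17, 9.39 and 10.7 CPM in RA-deficient PL. The groups did not overlap, and the log2 fold changes were 1.31 (adjusted p = 2.5e-04, edgeR) and -1.80 (adjusted p = 0.00141) against In/B and -3.23 (SE 0.31, adjusted p = 0.00111) between the PL groups. Of the 13 genes of efflux, esterification and LXR, 4 were called higher and 2 lower in RA-sufficient PL (of 10 tested), where 26.1% of all genes were called higher and 19.3% lower. In RA-deficient PL against In/B 1 was called higher and 2 lower (of 11), where 11.4% of all genes were higher and 11.8% lower. Soat1 alone was called between the PL groups, where 11% of all genes were lower and 4.47% higher. Without libraries 1 and 2 more genes were called against In/B, in this list and over all genes. Apoe, which carries lipid out of cells, was called higher in both PL groups (1.05, adjusted p = 0.00814, edgeR, and 1.03, adjusted p = 0.01), with values of 0.79 to 1.00 in the fits in which the threshold was missed after a library was left out. Nr1h3, Cyp27a1, Abcg4, Nceh1 and Soat2 complete these counts and were named after their values were seen.

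Among genes of fatty acid synthesis, the other arm under SREBPs, Acss2 and Acaca rose in both PL groups. Acss2, which makes acetyl-CoA from acetate, was 110 to 115 CPM in In/B, 417 to 442 CPM in RA-sufficient PL and 484 to 621 CPM in RA-deficient PL (1.98, SE 0.10, adjusted p = 1.07e-05, edgeR, and 2.41, SE 0.13, adjusted p = 3.74e-05). Acaca, the acetyl-CoA carboxylase, was 89.5 to 93.4 CPM, 193 to 304 CPM and 326 to 391 CPM in the same order (1.59, adjusted p = 1.03e-04, edgeR, and 2.10, adjusted p = 3.86e-05). Acly, which makes acetyl-CoA from citrate and was chosen after its values were seen, went the other way, from 323 to 463 CPM in In/B to 228 to 274 CPM in RA-sufficient PL and 170 to 201 CPM in RA-deficient PL. Its log2 fold changes were -0.52 (adjusted p = 0.0224, edgeR) and -0.84 (adjusted p = 0.00687) against In/B, the latter -1.06 and called without libraries 1 and 2. Of 12 genes of the list, RA-sufficient PL had 5 called higher and 1 lower against In/B, where 26.1% of all genes were called higher and 19.3% lower. RA-deficient PL had 2 higher and 1 lower, where 11.4% of all genes were higher and 11.8% lower. Without libraries 1 and 2 more genes were called lower there, in this list and over all genes. Between the PL groups 4 were called lower and 0 higher, where 11% of all genes were lower and 4.47% higher. Scd1, at most 26 CPM and chosen after its values were seen, is among the former 5 and the latter 4, and lost the latter call without libraries 1 and 2 (adjusted p = 0.065, edgeR).

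The desaturase Scd2 and the malic enzyme Me1 were high in RA-sufficient PL alone. Scd2 read 56.2, 81.1 and 61.4 CPM in In/B, 647, 463 and 446 CPM in RA-sufficient PL, and 70.3, 68.1 and 80.2 CPM in RA-deficient PL, high in the same libraries as the Sertoli markers. Its log2 fold changes were 3.03 against In/B (SE 0.20, adjusted p = 1.25e-05, edgeR) and -2.84 between the PL groups (SE 0.20, adjusted p = 7.9e-04). Me1 was called higher in RA-sufficient PL than in In/B (1.06, adjusted p = 0.0015, edgeR), a call lost without In/B library 1 (0.94) or RA-sufficient library 1 (0.83), and lower in RA-deficient than in RA-sufficient PL (-1.96, adjusted p = 0.00263). Elovl5, a fatty acid elongase, was 72.1 to 83.6 CPM in In/B, 56 to 81.3 CPM in RA-sufficient PL and 22.5 to 28 CPM in RA-deficient PL (-1.41 against In/B, adjusted p = 6.34e-04, edgeR). Fads1, another desaturase, read 84.4, 81.5 and 15.9 CPM in RA-deficient PL, where library 3 was the lowest of all 9, and its fall in RA-sufficient PL (-1.04, adjusted p = 0.00501, edgeR) lay between -0.93 and -0.97 in the 4 fits without a library that missed the fold threshold. Fads1 was called lower without libraries 1 and 2 in RA-deficient PL than in In/B (-3.30, adjusted p = 0.00176, edgeR) and than in RA-sufficient PL (-2.27, adjusted p = 0.00772).

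**Figure D4:**
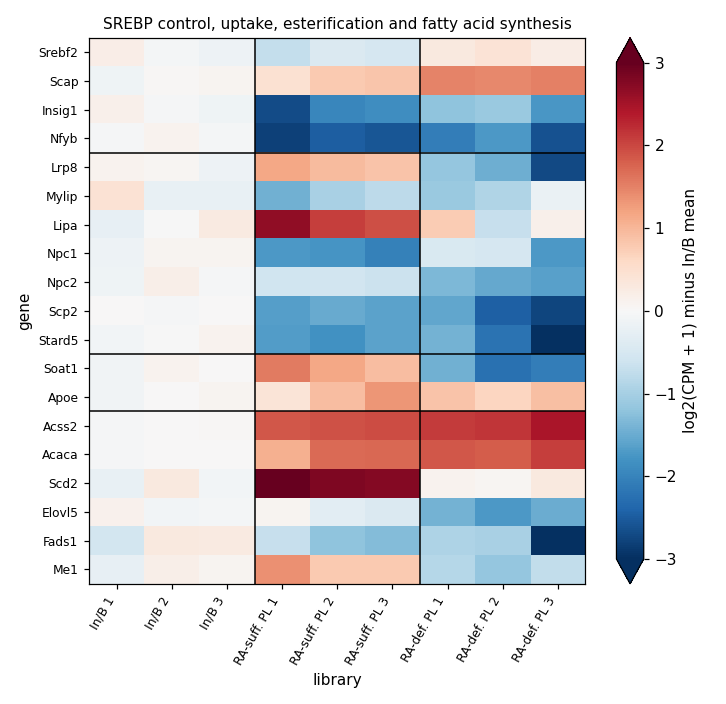
Log2(CPM + 1) of genes of related lists (y axis, from top to bottom SREBP control, uptake and transport, esterification and efflux, fatty acid synthesis) minus the gene's In/B mean, in each library (x axis). Blue is lower and red higher than In/B, and colours end at 3 in either direction. Insig1, Nfyb, Mylip, Npc1, Npc2, Scp2, Stard5 and Fads1 are lower in all 6 PL libraries. Scap, Apoe, Acss2, Acaca and Scd2 are higher in all 6, and Lrp8, Soat1, Scd2 and Me1 part the PL groups.

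Some of the genes described shared a pattern by library. Fdps, Mvd, Nsdhl, Hsd17b7, Dhcr7 and Insig1 were called lower in both PL groups. Cyp51 and Npc1 were low in RA-sufficient PL and, like Kit, lower in RA-deficient PL library 3 than in libraries 1 and 2. Ebp, Soat1, Lrp8, Lipa, Scd2 and Me1 were highest in the RA-sufficient libraries, in which the sum of 9 Sertoli markers was 2880 to 3740 CPM. Msmo1, Tm7sf2 and Scd1 were also highest there. Soat1, Lrp8 and Me1 lay below In/B in RA-deficient PL, where the Sertoli sum was 290 to 517 CPM, against 67.3 to 352 CPM in In/B. Sqle, Idi1, Fdft1 and Lss are in none of these groupings, which were made after the values were seen.

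**Figure D5:**
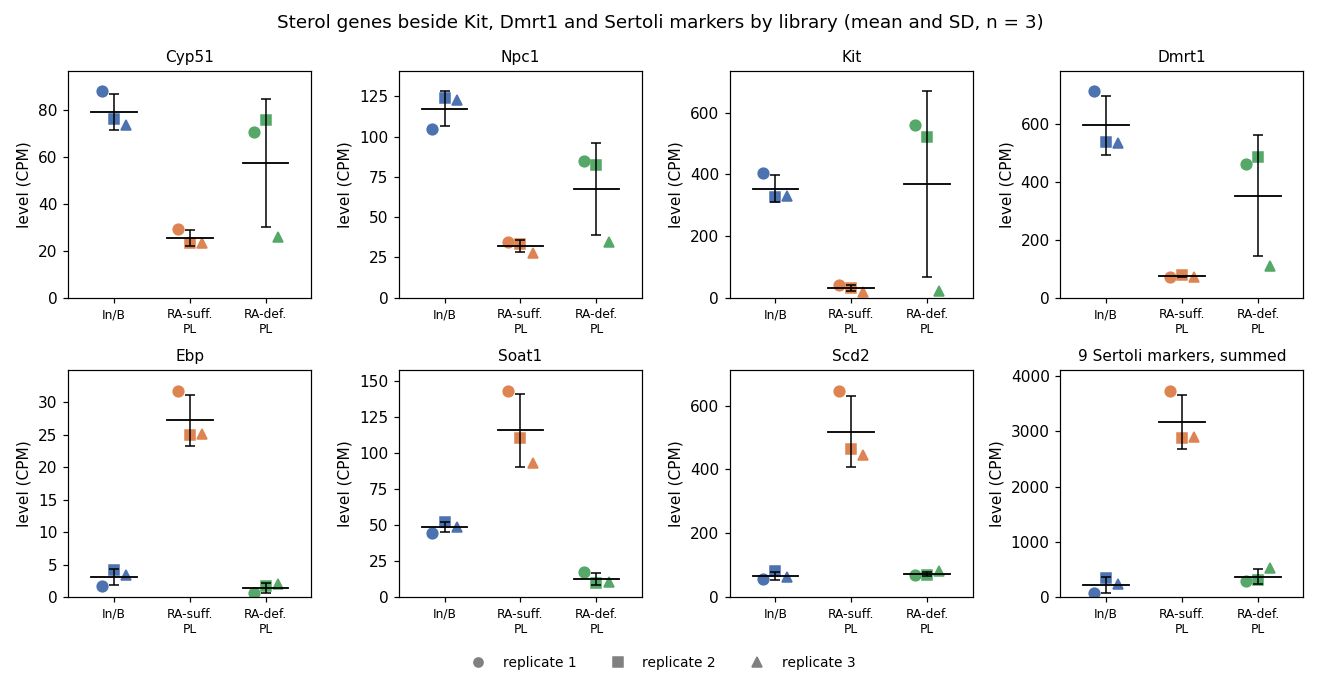
Level (y axis, CPM) of Cyp51, Npc1, Kit and Dmrt1 (upper panels) and of Ebp, Soat1, Scd2 and the sum of 9 Sertoli markers (lower panels) in each library, by group (x axis). Symbols mark replicate numbers, lines are means and bars 1 SD. In the upper panels RA-deficient PL library 3 lies below libraries 1 and 2, with Kit at 20.3 CPM against 561 and 521 CPM and Dmrt1 at 111 CPM against 460 and 485 CPM, and in the lower panels the RA-sufficient libraries lie above the others.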

How the data were processed

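Poly(A) RNA of sorted EGFP+ cells was sequenced from 9 libraries, 3 per group. The authors trimmed single-end reads of stranded libraries with cutadapt 1.9, aligned them to mm9 with STAR 2.5.2b and deposited raw counts of reads per gene from featureCounts in a single table, without normalization. The annotation and strand setting are not given in the sources used here, so genes that overlap on opposite strands may share reads. The study cites 2 or 3 independent cell preparations. If some of the 3 libraries of a group came from the same preparation, p-values measure partly technical spread. WIN18,446 before the RA injection ended at P10 according to the study and at P11 according to the labels.

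Pairs of groups were tested with edgeR 4.0.16 in R 4.3.3 (TMM scaling, filterByExpr, quasi-likelihood test, Benjamini-Hochberg adjustment over all genes tested), with calls at an adjusted p below 0.05 and a log2 fold change beyond 1 in either direction. Intervals are at 95% from the moderated fit, and they and the floor of 3 counts cover these libraries only. CPM were scaled by TMM over all 9 libraries, whereas each fit took its factors from its own pair of groups, so fold changes can differ from ratios of CPM. The script was tested on simulated data. Alternatives were RLE factors, library sizes alone, no filter, all 9 libraries in a single fit, DESeq2 1.42.0, a replicate block, an adjusted p alone and each library left out, and, added after the data were seen, both RA-deficient PL libraries 1 and 2 left out. Named genes were the members, list genes called in a comparison and averaging 10 CPM or more, and a few fixed by name such as Srebf2 and Insig1 whatever their result, plus the 5 most similar profiles. Some genes of the lists are not reported here by themselves, and the list results include them. Members and lists were chosen with earlier results of these data known. Coordinates are from GENCODE M1 (NCBIM37). Python 3.11.15 with matplotlib 3.10.9 drew the figures.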

Additional observations from a re-analysis of the deposited data

Results flagged for a closer look

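None of the members was flagged. The 8 genes listed here, all from the other lists, differed between RA-deficient and RA-sufficient PL by edgeR's quasi-likelihood test of the difference itself, fitted to these groups without In/B. The log2 fold change was -4.26 for Ebp (adjusted p = 0.00252, edgeR) and -1.49 for Msmo1 (adjusted p = 0.0292) among the enzymes. It was -2.68 for Lrp8 (adjusted p = 0.00438, edgeR), -2.28 for Lipa (adjusted p = 0.0178) and -3.23 for Soat1 (adjusted p = 0.00111) among genes of uptake and esterification. For fatty acid synthesis it was -1.38 for Elovl5 (adjusted p = 0.00614, edgeR), -2.84 for Scd2 (adjusted p = 7.9e-04) and -1.96 for Me1 (adjusted p = 0.00263). In all 8 the RA-deficient libraries were the lower ones, and all 9 detected Sertoli markers were called lower in them as well. The part of those markers was not tested.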

How the results depend on the processing

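Counts of called members were the same under RLE factors, library sizes, no filter and the replicate block. Between the PL groups 1 member in place of 0 was called with all 9 libraries in a single fit, by DESeq2 and on an adjusted p alone. Without both RA-deficient PL libraries 1 and 2, RA-deficient PL against In/B gave 2 called members in place of 1 and 6025 called genes in place of 3446. On an adjusted p alone 5459 genes were called in RA-deficient PL against In/B and 3629 between the PL groups. With a library left out, called genes ran from 6553 to 6837 in RA-sufficient PL against In/B (2 members throughout), from 2639 to 3995 in RA-deficient PL against In/B (1 member throughout) and from 1190 to 4484 between the PL groups (0 to 1 member), the highest without RA-deficient PL library 3 and 1227, 1190 and 1283 without RA-sufficient libraries 1, 2 and 3, against 2383 with all.

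Signs turned for values near 0. Idi1 in RA-sufficient PL against In/B was -0.041 without In/B library 3 and -0.017 without RA-sufficient PL library 3, and reached 0.258 with another library left out. In RA-deficient PL against In/B, leave-one-out values ran from -0.104 to 0.0037 for Sqle (the last without In/B library 1), and from -0.215 to 0.019 for the members' median and from -0.565 to 0.054 for Cyp51 (the last of both without RA-deficient PL library 3), and Lss was -0.070 without libraries 1 and 2. Between the PL groups Fdps ran from -0.024, without RA-deficient PL library 1, to 0.400, and was -0.207 without libraries 1 and 2. The cause was not tested. Library sizes in place of TMM moved the median of all genes to -0.31 in RA-deficient PL against In/B and to -0.27 between the PL groups, and the share of higher among called genes from 49.1% to 28.9% and from 28.8% to 17.5%. The members' median against In/B was then -0.48, and Sqle between the PL groups was 0.28 (adjusted p = 0.162, edgeR). Of the alternative values of single members, their medians and mean levels, 268 kept direction and side of the threshold or stayed within 1 SD, 10 passed the threshold newly, 9 no longer passed it, 8 changed sign and 7 moved further.

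Same-numbered libraries did not deviate together: correlations of their deviations were -0.276, -0.278 and -0.239 for RA-sufficient PL and In/B, 0.177, -0.167 and 0.2 for RA-deficient PL and In/B, and -0.037, 0.023 and -0.055 for the PL groups. With the replicate block 6373, 3208 and 1765 genes were called in the 3 comparisons, in the order of the text, with 2, 1 and 0 members, and Sqle between the PL groups had an adjusted p of 0.0896 (edgeR). Depth limits Vldlr and Soat2, which lie near or under 3 counts in some libraries.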
